A study of Mus musculus with 6 samples.

Results

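The Hox genes are described here in sorted bone marrow cells of mice with a Cre-activated allele of the Notch1 receptor's active part. Members were all genes whose symbol reads Hox, a cluster letter from a to d, and a number, which gave 38 listed genes. Of these, 33 had a probe set of their own and were among the 18193 genes tested. Hoxa6, Hoxc11 and Hoxc12 had no probe set named here, and Hoxb8 and Hoxd4 had only probe sets shared with a neighbouring Hox gene.

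RNA was measured with 1 Affymetrix array per mouse in LSK cells, the lineage-negative, cKit-positive and Sca1-positive fraction of bone marrow that holds stem cells and early progenitors. The 3 N1IC mice were labelled lox-stop-lox N1-IC Mx1-cre+, an allele from which Cre releases N1-IC, the intracellular part of Notch1. The 3 WT mice were labelled Mx1-cre+, so both groups carried the interferon-inducible Cre transgene and all 6 mice were given polyIC. The mice were 5 weeks old, had 3 injections of 20 mcg polyIC per g of body weight from 21 days of age, and were sampled 2 weeks after the last injection. The treatment text names floxed Ncstn alleles instead of N1-IC, and the groups follow the genotype labels. The sources used here do not say how completely the allele had recombined in the sorted cells. All 3 N1IC mice were female, against 1 female and 2 males among the WT mice.

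Hox genes encode homeodomain transcription factors and lie in 4 clusters, in which genes of the same number in different clusters are paralogues of one another. During development their order along a cluster matches the order of the body regions that they pattern. In blood formation, Hox genes mainly of the a and b clusters are active in stem and progenitor cells and are switched off as cells mature, and Hox proteins bind DNA together with cofactors of the Meis and Pbx families.

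Values are log2 intensities of each gene's brightest probe set, by its mean over all arrays, and log2 fold changes are given as N1IC minus WT. Fits were made with limma over all 18193 genes, and a gene is said to have fallen or risen where its Benjamini-Hochberg adjusted p was under 0.05. Replicates are separate mice, and with 3 arrays a group their number limits the precision of every value. The array median intensity lay between 89.0 and 90.8 in N1IC and between 89.0 and 92.4 in WT. Correlations of log2 values over all probe sets other than controls were between 0.990 and 0.992 for pairs of N1IC arrays, between 0.985 and 0.989 for pairs of WT arrays, and between 0.968 and 0.975 across the groups. The Notch1 target genes Hes1 and Dtx1 were higher in N1IC, with log2 fold changes of 3.74 and 6.34 and adjusted p = 0.000887 and 0.000175 in the limma fit. Notch1 itself was higher by 0.73 (adjusted p = 0.0119 in limma). Ncstn, the gene named in the treatment text, averaged 9.06 in N1IC and 9.34 in WT and did not pass (adjusted p = 0.345 in limma). Kit, which defines the sorted fraction, averaged 11.51 in N1IC and 11.76 in WT, a log2 fold change of -0.25 that did not pass (adjusted p = 0.226 in the limma fit). Ly6a, which encodes Sca1, was not analysed here. Of the lineage genes that such a sort selects against, Cd4, Cd8a and Itgam did not pass, nor did the pan-leukocyte gene Ptprc. Cd8a was uneven within both groups, with 9.61, 6.73 and 6.43 on the N1IC arrays, against 6.95, 9.78 and 9.59 on the WT arrays. In mature myeloid and dendritic markers WT replicate 1 was lower than WT replicates 2 and 3: the mean log2 level of 8 mature myeloid markers was 9.42, 9.58 and 10.06 on the N1IC arrays, against 9.99, 11.69 and 11.65 on the WT arrays. The mean of 7 dendritic markers was 8.89, 8.88 and 8.86 on the N1IC arrays, against 9.27, 10.82 and 10.82 on the WT arrays.

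Of the 33 measured Hox genes, 8 fell in N1IC and 0 rose, while 25 did not pass the test. Over all genes, 8.31 percent were called lower and 3.47 percent higher. By limma the count of members higher in N1IC was also 0 at unadjusted p under 0.05, and 0 under each of the 20 alternative settings. On the arrays themselves, 11 members had every N1IC value below every WT value and 1 had every N1IC value above every WT value, against 19.7 and 13.1 percent of all genes. The median log2 fold change of the members was -0.05, against -0.01 over all genes. The 8 genes that fell had log2 fold changes between -3.07 and -0.71. Of these, 5 fell by at least 1 on the log2 scale (Hoxa2, Hoxa9, Hoxa10, Hoxb3 and Hoxb5), against 4.22 percent of all genes. The 8 genes all lie in the a and b clusters: 5 of 9 measured Hoxa genes and 3 of 9 Hoxb genes fell, against 0 of 7 Hoxc genes and 0 of 8 Hoxd genes. Without WT replicate 3 the number of Hox genes that fell was 4, and without N1IC replicate 3 it was 5. Without WT replicate 1, the array with lower mature-cell markers, it was 7, the call of Hoxa5 being lost.

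**Figure D1:**
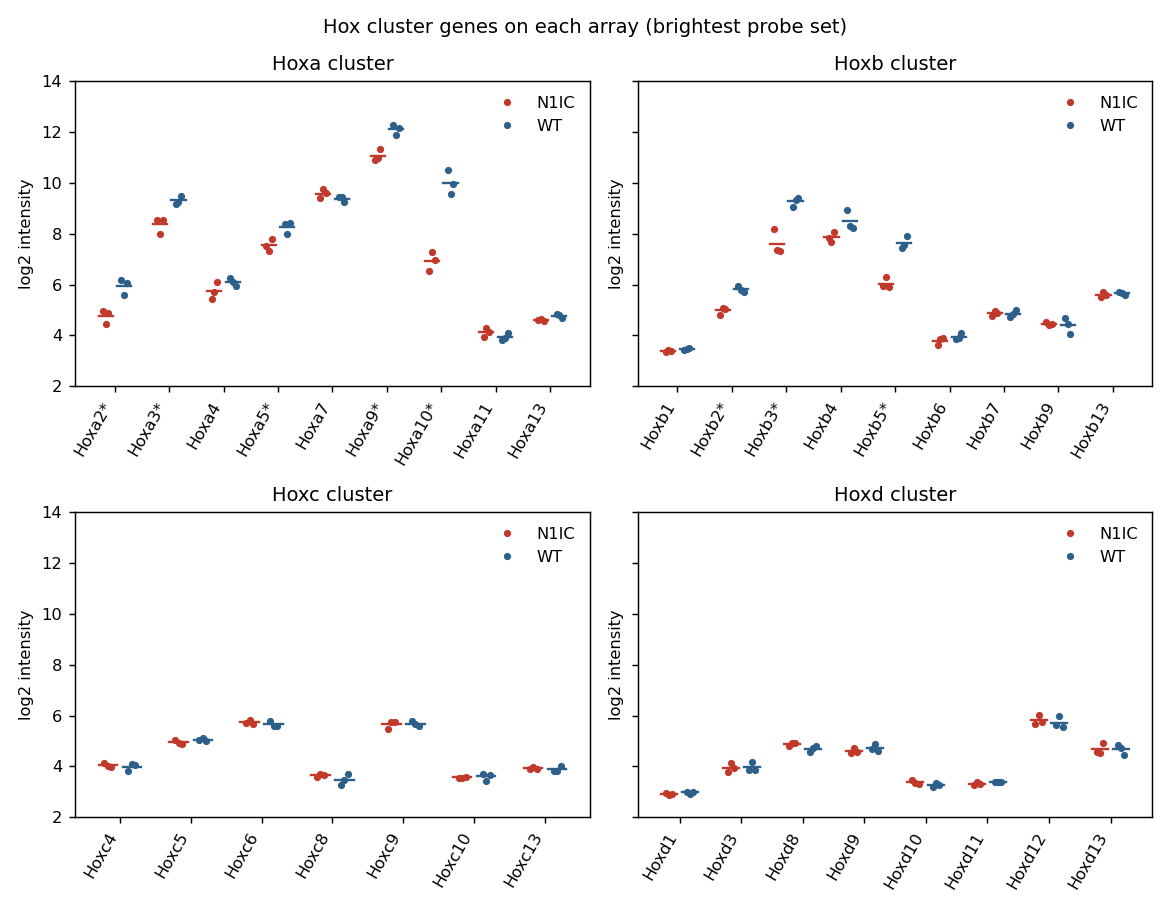
Log2 intensity of the brightest probe set of the 33 measured Hox genes on each array, with a panel for each cluster, N1IC points left of WT points, a bar at each group mean and an asterisk at each gene that fell. The groups are furthest apart for Hoxa10, with means of 6.93 in N1IC and 9.998 in WT, while the points of Hoxa7 and of most Hoxc and Hoxd genes overlap.

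Within the a cluster, on chromosome 6, the largest fall was that of Hoxa10, a posterior member that acts in early progenitors and in the megakaryocyte and myeloid lineages. Its values were 6.54, 7.30 and 6.95 on the N1IC arrays, against 10.51, 9.55 and 9.93 on the WT arrays. Every N1IC array lay more than 2 log2 units below every WT array, a gap wider than the spread within either group. The means were 6.93 ± 0.38 in N1IC and 9.998 ± 0.48 in WT (SD, n = 3 each). The difference on the log2 scale was -3.07 ± 0.29 (SE), with a 95% interval from -3.79 to -2.35 and an adjusted p of 0.00317 in the limma fit. By size of fall Hoxa10 ranked 64th of 18193 genes. It kept its call in all 19 alternatives that tested it. The second Hoxa10 probe set was dim, averaging 3.34 in N1IC and 3.67 in WT, and did not pass when probe sets were fitted separately (adjusted p = 0.260 in limma). With the mean of both probe sets in its place, the log2 fold change was -1.69.

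Hoxa9, which lies next to Hoxa10 and sustains progenitor growth and, when overexpressed, leukemia, fell by less. It had 10.88, 10.97 and 11.32 on the N1IC arrays, against 12.28, 11.89 and 12.14 on the WT arrays, with no overlap. The log2 fold change was -1.05 ± 0.16 (SE), with a 95% interval from -1.43 to -0.66 and an adjusted p of 0.0118 in the limma fit. This interval does not overlap that of Hoxa10. A second Hoxa9 probe set gave 8.40, 8.83 and 9.26 on the N1IC arrays, against 9.94, 9.27 and 9.49 on the WT arrays. There N1IC replicate 3 lay just under WT replicate 2, and the difference of -0.74 did not pass (adjusted p = 0.152 in limma over each probe set).

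Another 3 anterior or middle members of the cluster also fell. Hoxa2, known for patterning the hindbrain and the second branchial arch, had 4.95, 4.44 and 4.89 on the N1IC arrays, against 6.18, 5.59 and 6.07 on the WT arrays. Its log2 difference was -1.19 ± 0.21 (SE), with adjusted p = 0.0190 in limma, against 0.0512 without N1IC replicate 3 and 0.0691 without WT replicate 3. Hoxa3, required for the thymus and parathyroid, had 8.56, 7.98 and 8.55 on the N1IC arrays, against 9.18, 9.25 and 9.48 on the WT arrays. In both genes N1IC replicate 2 was the lowest of the 6 arrays and the groups were separate. The log2 fold change of Hoxa3 was -0.94 ± 0.18 (SE), or 1.92-fold lower, with adjusted p = 0.0264 in limma. Leaving out N1IC replicate 1 or 3 or WT replicate 2 or 3 ended this call, and the adjusted p in limma then lay between 0.0530 and 0.0856. Of its 3 dimmer probe sets, 1 also had every N1IC array below every WT array, with a difference of -0.47, and the others differed by -0.22 and 0.09 with overlap. None of the 3 passed on its own, and the mean of the 4 probe sets gave -0.39 (adjusted p = 0.117 in limma).

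Hoxa5, known for its part in lung and axial patterning and in the balance of myeloid and erythroid differentiation, was the weakest call. It had 7.50, 7.33 and 7.80 on the N1IC arrays, against 8.38, 7.99 and 8.40 on the WT arrays. The groups were separate, though the highest N1IC array came close to the lowest WT array. A log2 fold change of -0.71 ± 0.17 (SE), or 1.64-fold lower, gave an adjusted p of 0.0488 in limma, and the call was lost in 14 of 19 alternatives. The second Hoxa5 probe set had the same direction without overlap, at 7.62, 7.07 and 7.81 on the N1IC arrays, against 8.59, 8.01 and 8.25 on the WT arrays, a difference of -0.78. When probe sets were fitted separately, neither the brightest nor the second passed (adjusted p = 0.0549 and 0.0976 in limma).

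The remaining 4 measured Hoxa genes did not pass. Hoxa7 lies between Hoxa5 and Hoxa9 on the chromosome and is, like Hoxa9, a known target of MLL proteins. It had 9.38, 9.74 and 9.59 on the N1IC arrays, against 9.45, 9.43 and 9.24 on the WT arrays. The groups overlapped, and the log2 fold change of 0.20 had a 95% interval from -0.09 to 0.49 (adjusted p = 0.365 in limma). This interval lies wholly above that of Hoxa5, which ran from -1.13 to -0.30, and above that of Hoxa9. Hoxa4 had a log2 fold change of -0.35, with an interval from -0.81 to 0.11, and its groups overlapped. Hoxa11 and Hoxa13, at the posterior end, differed by 0.20 and -0.15, and all their arrays lay between 3.81 and 4.83. Along the cluster, Hoxa4 and Hoxa7 therefore stand uncalled among members that fell, as the plot in chromosomal order shows. The interval of Hoxa4 overlaps those of Hoxa3 and Hoxa5, so a difference from these neighbours is not shown.

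**Figure D2:**
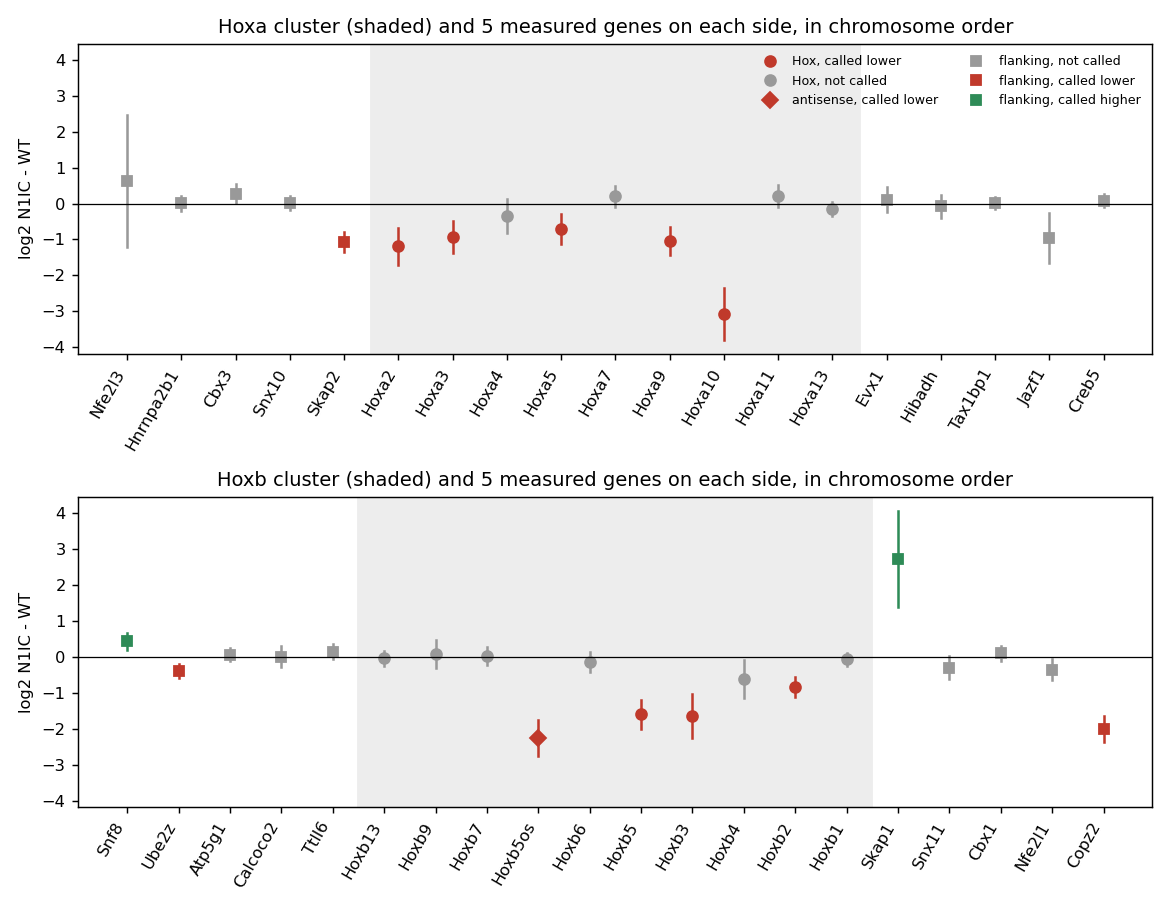
Log2 fold change, N1IC minus WT, with its 95% interval for the measured genes of the a and b clusters (shaded; the diamond is the antisense Hoxb5os) and 5 measured genes on each side, in order of their chromosome start, red where lower, green where higher and grey where not called. Hoxa10 stands lowest at -3.07, and Hoxa7 at 0.20 stands between members that fell. Hoxb5 and Hoxb3, at -1.60 and -1.65, are side by side only in this order of annotated starts. Hoxb4, which did not pass, is drawn after them at -0.63.

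Promoters are shown for 4 genes of the a cluster, since these genes of 1 cluster ran from the largest fall of the family (Hoxa10) through Hoxa9 and Hoxa2 to no called change (Hoxa7). Each is the stretch from 250 bases before to 50 bases after a start annotated by RefSeq on GRCm38.p6, written 5′ to 3′ on the minus strand. Capitals mark the letters searched on both strands: the RBPJ core TGGGAA, bound by the partner of active Notch1, the Pbx-Hox composite TGATNNAT, the Meis letters TGACAG and the Cdx letters TTTATG. The windows are chr6:52240805-52241104 for Hoxa10, chr6:52227321-52227620 for Hoxa9, chr6:52218524-52218823 for Hoxa7 and chr6:52164782-52165081 for Hoxa2.
Hoxa10: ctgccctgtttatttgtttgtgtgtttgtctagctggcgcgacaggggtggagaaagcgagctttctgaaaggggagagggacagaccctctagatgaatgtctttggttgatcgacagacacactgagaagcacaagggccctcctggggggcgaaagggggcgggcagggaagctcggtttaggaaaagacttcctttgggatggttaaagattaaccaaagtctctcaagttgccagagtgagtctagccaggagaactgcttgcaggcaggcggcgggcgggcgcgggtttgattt
Hoxa9: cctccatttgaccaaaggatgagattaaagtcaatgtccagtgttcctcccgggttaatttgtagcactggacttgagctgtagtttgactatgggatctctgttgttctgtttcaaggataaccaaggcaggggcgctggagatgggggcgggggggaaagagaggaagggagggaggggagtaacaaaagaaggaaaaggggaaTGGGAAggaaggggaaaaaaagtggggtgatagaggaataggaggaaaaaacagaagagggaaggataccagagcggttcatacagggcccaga
Hoxa7: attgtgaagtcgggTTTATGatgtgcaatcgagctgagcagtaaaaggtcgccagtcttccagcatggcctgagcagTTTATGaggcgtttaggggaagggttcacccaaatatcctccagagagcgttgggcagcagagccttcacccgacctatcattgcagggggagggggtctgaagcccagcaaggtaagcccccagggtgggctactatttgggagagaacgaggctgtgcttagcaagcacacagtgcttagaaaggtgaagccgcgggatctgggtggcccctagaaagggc
Hoxa2: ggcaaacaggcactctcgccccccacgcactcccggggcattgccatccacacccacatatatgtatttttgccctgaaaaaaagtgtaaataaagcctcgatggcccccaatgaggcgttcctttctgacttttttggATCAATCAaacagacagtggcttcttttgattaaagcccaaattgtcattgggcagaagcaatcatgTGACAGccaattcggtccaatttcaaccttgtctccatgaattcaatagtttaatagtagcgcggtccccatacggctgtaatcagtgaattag

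In these windows Hoxa9 held the RBPJ letters at base 207, Hoxa7 held the Cdx letters at bases 15 and 78, and Hoxa2 held the Pbx-Hox letters on the opposite strand at base 140 and the Meis letters at base 207. None of the 4 marked motifs occurred in the Hoxa10 window. RefSeq promoters were matched for 22 of the 38 members, in 24 entries. The RBPJ letters occurred in 5 of the 24 Hox entries and in 25.6 percent of all 32851 promoters, and in 2 of the 6 entries of genes that fell. These 6 entries belong to 5 genes, all of the a cluster (Hoxa2, Hoxa3, Hoxa5, Hoxa9 and Hoxa10). No promoter was matched for Hoxb2, Hoxb3 or Hoxb5, so the b cluster genes that fell are not covered. The Pbx-Hox letters occurred in 4 Hox entries and in 8.85 percent of all promoters. The Meis letters occurred in 2 Hox entries, both of genes that fell, and in 19.2 percent of all promoters, and the Cdx letters in 5 Hox entries, 0 of them of genes that fell, and in 11.9 percent of all promoters. The GC box letters GGGCGG, which were searched but not marked, occurred in 10 Hox entries and in 35.7 percent of all promoters. No motif overlapped another in the 4 windows. A match describes letters and shows no binding. The median number of CpG pairs was 14.5 in Hox entries and 16 in the 6 entries of genes that fell, against 7 over all promoters.

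In the b cluster, on chromosome 11, the gene with the smallest p was Hoxb5, whose activity marks long-term stem cells in the mouse. It had 5.93, 6.28 and 5.91 on the N1IC arrays, against 7.43, 7.57 and 7.91 on the WT arrays. All 3 N1IC arrays lay more than 1 log2 unit below the lowest WT array. The log2 fold change was -1.60 ± 0.16 (SE), or 3.03-fold lower, with a 95% interval from -2.001 to -1.20 and adjusted p = 0.00382 in the limma fit. The call was lost in 1 of 19 alternatives, the fit with sex as a covariate (adjusted p = 0.0574 in limma).

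Hoxb3, which together with Hoxb4 supports stem cell proliferation, had 8.17, 7.35 and 7.32 on the N1IC arrays, against 9.05, 9.33 and 9.42 on the WT arrays. N1IC replicate 1 stood closer to the WT arrays than the other two did, but still below all of them. On the log2 scale the change was -1.65 ± 0.25 (SE), with adjusted p = 0.0125 in limma. Without WT replicate 3 the adjusted p was 0.0511 in limma. A second probe set gave 6.15, 5.50 and 5.64 on the N1IC arrays, against 6.41, 6.88 and 7.02 on the WT arrays, and it too passed on its own, with a difference of -1.01 (adjusted p = 0.0470 in limma over each probe set). N1IC replicate 1 was again the highest of its group. Of the 11 members with more than 1 probe set, Hoxb3 was the one in which 2 passed when probe sets were fitted separately.

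Hoxb2, which patterns the hindbrain, had 4.80, 5.09 and 5.05 on the N1IC arrays, against 5.96, 5.79 and 5.72 on the WT arrays. The groups were separate. It changed by -0.84 ± 0.11 (SE) on the log2 scale, with adjusted p = 0.00846 in limma.

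Hoxb4, which expands stem cells when overexpressed, was the nearest member outside the threshold. It had 7.82, 7.67 and 8.05 on the N1IC arrays, against 8.93, 8.30 and 8.20 on the WT arrays. Every N1IC array was below every WT array, and WT replicate 1 stood above the other WT arrays. Its log2 fold change was -0.63 with an interval from -1.15 to -0.10 and adjusted p = 0.129 in limma. Without WT replicate 1 it was -0.40. Its second probe set differed by 0.01, with overlap. The other 5 measured Hoxb genes, Hoxb1, Hoxb6, Hoxb7, Hoxb9 and Hoxb13, had log2 fold changes between -0.15 and 0.07. The probe set that Hoxb8 shares with Hoxb7 differed by -0.17.

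An antisense transcript of this cluster, Hoxb5os, is no member by its symbol, and RefSeq places it across both Hoxb6 and Hoxb5. It had 7.07, 6.50 and 6.82 on the N1IC arrays, against 9.25, 9.21 and 8.69 on the WT arrays. The groups were separate, and the log2 fold change of -2.25 ± 0.21 (SE), or 4.77-fold lower, passed with adjusted p = 0.00271 in limma. The antisense transcripts Hoxa11os and Hoxd3os1, at 0.11 and -0.05, did not pass.

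**Figure D3:**
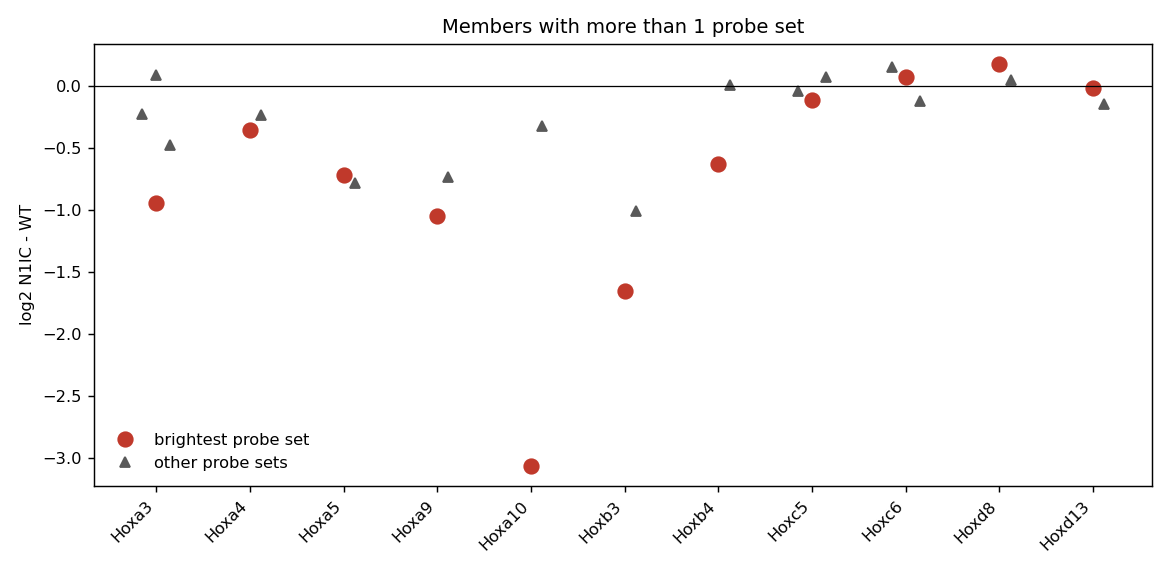
Difference between the N1IC and WT means, in log2 units, for every probe set of the 11 Hox genes that have more than 1, with a circle for the brightest and triangles for the others. Both probe sets of Hoxb3 (-1.65 and -1.01) and of Hoxa5 (-0.71 and -0.78) lie well below 0, while Hoxa10 is at -3.07 on the brightest and at -0.32 on the other.

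In the c and d clusters, on chromosomes 15 and 2, no gene passed. The 7 measured Hoxc genes, Hoxc4, Hoxc5, Hoxc6, Hoxc8, Hoxc9, Hoxc10 and Hoxc13, had log2 fold changes between -0.11 and 0.18, with 95% intervals that together ran from -0.31 to 0.48. Their arrays lay between 3.27 and 5.82. The 8 measured Hoxd genes, Hoxd1, Hoxd3, Hoxd8, Hoxd9, Hoxd10, Hoxd11, Hoxd12 and Hoxd13, had log2 fold changes between -0.12 and 0.18, with intervals that together ran from -0.38 to 0.48. At unadjusted p under 0.05 the limma count was also 0 in both clusters, and none of these 15 genes passed in any alternative setting. Hoxd8 was the one member with every N1IC array above every WT array, at 4.80, 4.90 and 4.93 in N1IC, against 4.58, 4.73 and 4.79 in WT. Its difference of 0.18 did not pass (adjusted p = 0.266 in limma), and the lowest N1IC array was almost level with the highest WT array. The 2 probe sets that Hoxd4 shares with Hoxd3 differed by 0.15 and 0.01.

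No detection calls were used, so the signal of probe sets without a transcript was read from 7 Y-linked genes on the 4 arrays of female mice. Their 15 probe sets lay between 2.87 and 7.56 there, with a median of 3.48 and a 90th percentile of 5.42. Of these, 13 stayed below 4.5, and the higher values came from a probe set each of Sry and Zfy2. The percentile therefore rests on few probe sets. All 6 arrays were at or below 5.42 for 18 of the 33 Hox genes: 2 of the a cluster, 4 of the b cluster, 5 of the c cluster and 7 of the d cluster. None of the 8 genes that fell was among them, but for 2 of the 8, Hoxa2 and Hoxb2, all 3 N1IC arrays lay below 5.42 and the WT arrays only a little above it. The N1IC levels of these 2 genes are therefore not above this 90th percentile, though they lay above 4.38, the highest value of the other 13 Y-linked probe sets. The sizes of their log2 differences, given in this report, are uncertain for this reason. For those 18 genes a low level and no transcript cannot be told apart, and no gene is called absent.

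By paralogue number, the falls were spread over groups 2, 3, 5, 9 and 10. Both measured members of group 2 fell, Hoxa2 and Hoxb2. In group 3, Hoxa3 and Hoxb3 fell and Hoxd3 did not pass, and in group 5, Hoxa5 and Hoxb5 fell and Hoxc5 did not pass. Hoxa9 was the only one of 4 measured members of group 9 to fall, and Hoxa10 the only one of 3 in group 10. In group 4, none of Hoxa4, Hoxb4 and Hoxc4 passed. Taken in ranges, 4 of 7 genes of groups 1 to 3, 2 of 12 genes of groups 4 to 8 and 2 of 14 genes of groups 9 to 13 fell. Of all genes, 8.31 percent fell. The ranges include the 18 genes with all 6 arrays at or below 5.42, a level that leaves little room for a fall. The difference between the ranges was not tested.

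**Figure D4:**
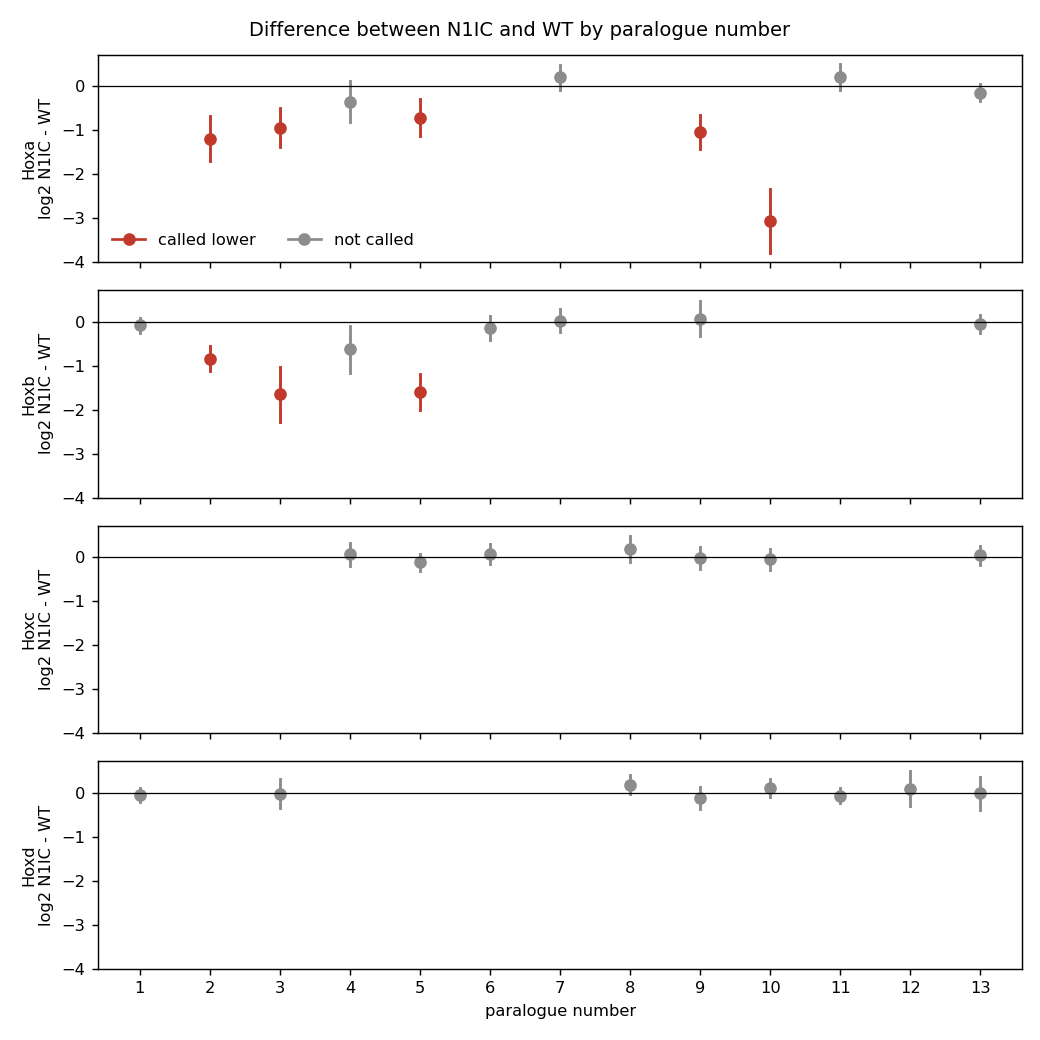
Log2 fold change, N1IC minus WT, with its 95% interval for each measured Hox gene by paralogue number, a panel for each cluster, red where the gene fell and grey where it was not called. In group 5 Hoxb5 is at -1.60 and Hoxa5 at -0.71 while Hoxc5 is at -0.11, and in group 10 Hoxa10 is at -3.07 while Hoxc10 and Hoxd10 are at -0.05 and 0.10.

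The N1IC arrays did not share one order across the genes that fell. N1IC replicate 1 was the lowest of its group for Hoxa9, Hoxa10 and Hoxb2, but the highest for Hoxa2, Hoxa3 and Hoxb3. N1IC replicate 2 was the lowest for Hoxa2, Hoxa3 and Hoxa5. Among the WT arrays, replicate 1, the array with the lowest mature myeloid and dendritic markers of its group, was the highest for Hoxa2, Hoxa9, Hoxa10 and Hoxb2 and the lowest for Hoxa3, Hoxb3 and Hoxb5. Without it the log2 differences were -1.08 for Hoxa2, -0.96 for Hoxa9, -2.81 for Hoxa10 and -0.77 for Hoxb2, and all 4 kept their calls.

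Sex touches all of these values, because 2 of the 3 WT mice were male and the N1IC mice were female. With sex as a covariate, 1 Hox gene fell (Hoxa10), and with female mice alone 2 did (Hoxa10 and Hoxb5). Both fits set the 3 N1IC arrays against WT replicate 2 alone, and the lone WT array is assumed to vary as the others do. The log2 fold change was -2.62 for Hoxa10, -1.53 for Hoxb5, -1.72 for Hoxb3, -0.83 for Hoxa9 and -0.80 for Hoxb2 in these fits. For Hoxa2, Hoxa3 and Hoxa5 it was -0.84, -0.88 and -0.44. The direction held for all 8 genes.

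**Figure D5:**
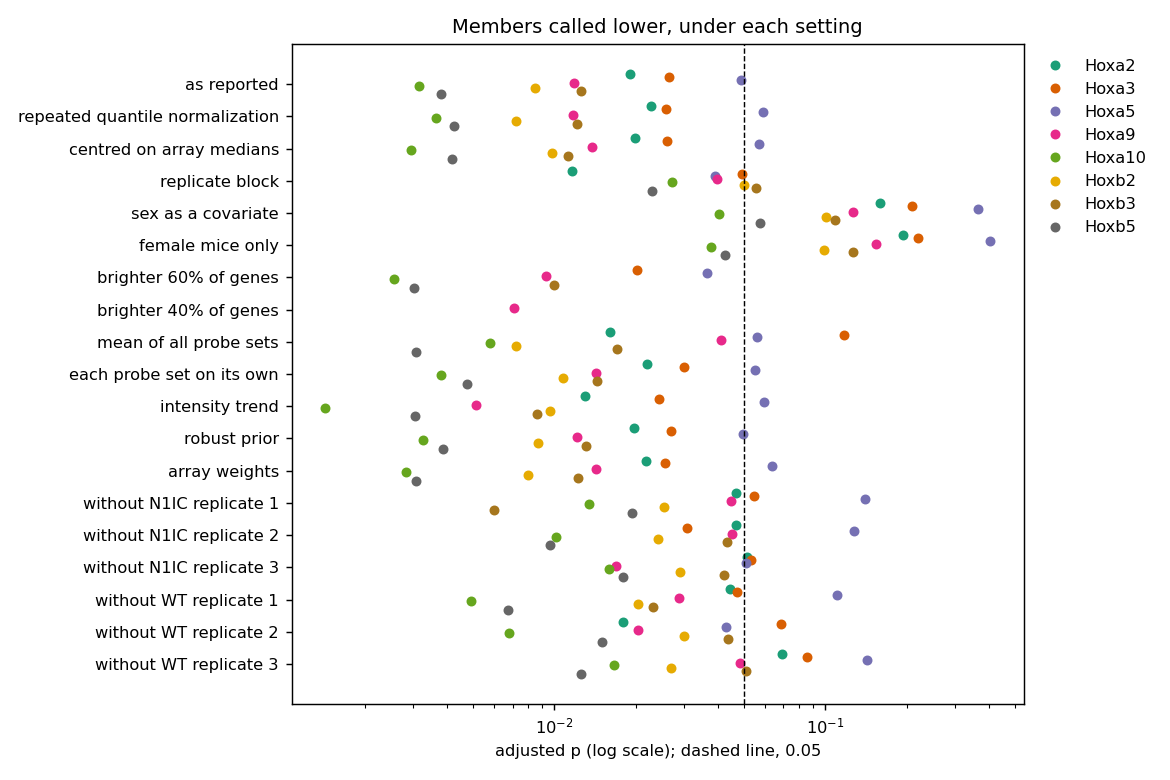
Adjusted p from limma, on a log axis with a dashed line at 0.05, of the 8 Hox genes that fell, as reported and under each alternative that changes the fit; a gene has no point where it was not tested. Hoxa10 stays left of the line in every setting that tested it, with 0.0404 as its highest value, while Hoxa5 lies right of the line in most.

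Beyond the cluster edges, the 5 nearest measured protein-coding genes on each side of each cluster gave 40 genes, of which 4 fell (10 percent), 2 rose and 34 did not pass, against 8.31 percent lower and 3.47 percent higher over all genes. The number called in either direction, 6, was 1 when sex was fitted or female mice alone were compared, and 2 to 4 with 1 array left out, lowest without N1IC replicate 3 or WT replicate 3. Skap2, which encodes an adaptor protein and is next to the anterior end of the a cluster, had 10.52, 10.90 and 10.79 on the N1IC arrays, against 11.85, 11.76 and 11.80 on the WT arrays (log2 fold change -1.07, adjusted p = 0.00418 in limma). At the matching end of the b cluster its paralogue Skap1, a T cell adaptor, had 9.85, 9.49 and 9.04 on the N1IC arrays, against 5.50, 7.34 and 7.41 on the WT arrays (log2 fold change 2.71, adjusted p = 0.0295 in limma). Copz2, Ube2z and Ttc30b fell, with log2 fold changes of -2.01, -0.40 and -1.12, and Snf8 rose, with 0.43. The homeobox genes Evx1 and Evx2, next to Hoxa13 and Hoxd13, differed by 0.11 and 0.20 and did not pass.

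Among the cofactors that bind DNA with Hox proteins, 2 of 8 measured Meis, Pbx and Pknox genes fell, against 8.31 percent of all genes. The number that rose was 0, and 1 was higher at unadjusted p under 0.05 in limma. This was Pbx4, named after its values were seen, with a log2 fold change of 1.51 and overlapping groups (adjusted p = 0.129 in limma). The median log2 fold change of the 8 cofactors was 0.03. Meis1 had 8.14, 7.99 and 8.15 on the N1IC arrays, against 9.96, 9.77 and 10.21 on the WT arrays, a log2 fold change of -1.89 with adjusted p = 0.00110 in limma. Pbx3 had 8.20, 8.42 and 8.09 on the N1IC arrays, against 9.31, 8.82 and 8.80 on the WT arrays, a log2 fold change of -0.74 with adjusted p = 0.0442 in limma. The groups were separate in Meis1 and in Pbx3, and both are known partners of Hoxa9. With any 1 array left out, 1 of the 8 cofactors was called.

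Of 16 measured genes that maintain Hox transcription, such as the MLL complex and Cdx genes, 0 passed in limma, with 1 higher and 0 lower at unadjusted p under 0.05. Kmt2a, which encodes MLL1, averaged 12.14 in N1IC and 12.14 in WT, with a log2 fold change of 0.01. Psip1 and Dpy30, which encode MLL partners, differed by 0.06 and -0.02. Dot1l, named after its values were seen, was the gene below the unadjusted threshold, at 0.45 (adjusted p = 0.173 in limma). When the fit held every probe set separately, 1 activator gene was called. Polycomb complexes repress Hox clusters. Of 18 measured Polycomb genes, 0 rose (1 was higher at unadjusted p under 0.05 in limma). Against 8.31 percent of all genes, 2 of the 18 fell (11.1 percent). These were Phc1 and Phc3, with log2 fold changes of -0.55 and -0.84, adjusted p = 0.0207 and 0.0237 in limma, and neither was called when sex was fitted or when female mice alone were compared. Ezh2 and Bmi1, named after their values were seen, differed by 0.15 and 0.02.

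Of 10 measured genes reported as targets of Hoxa9 or Meis1, 6 fell and 0 rose, with 2 higher at unadjusted p under 0.05 in limma. They were Bcl2, Lmo2, Flt3, Cd34, Erg and Camk2d, with log2 fold changes of -1.94, -1.07, -3.08, -0.62, -1.05 and -0.65. The other 4, Pim1, Sox4, Cdk6 and Myb, each had every N1IC array above every WT array. They differed by between 0.11 and 0.34 and did not pass. The count was 3 when sex was fitted, 2 among female mice alone and 3 without WT replicate 3. Among 28 other measured homeobox genes, 2 fell (Hlx and Pou2f2, -1.55 and -1.85) and 1 rose (Tgif1, 0.92). For comparison with both lists, 8.31 percent of all genes fell, 3.47 percent rose and 13.1 percent had every N1IC array above every WT array.

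Markers of cell types moved with the groups as well. Beside the counts below, 8.31 percent of all genes fell and 3.47 percent rose. Of 12 measured stem cell markers, 11 fell, and the mean log2 level of the list was between 8.26 and 8.36 on the N1IC arrays and between 10.17 and 10.59 on the WT arrays. The count of 11 was 4 when sex was fitted and 6 among female mice alone, and 7 without N1IC replicate 2, the lowest of 7 to 10 with 1 array left out. Of 10 measured T-lineage markers, 9 rose, and the list mean was between 11.36 and 11.70 on the N1IC arrays and between 7.09 and 8.06 on the WT arrays. The megakaryocyte list (5 of 7 fell) was between 6.25 and 6.91 in N1IC and between 8.63 and 8.80 in WT. The granulocyte-macrophage list (7 of 9 fell) was between 9.71 and 10.61 in N1IC and between 11.73 and 12.60 in WT, and the B-lineage list (6 of 7 fell) was between 6.90 and 7.46 in N1IC and between 10.10 and 10.81 in WT. Of 8 mature myeloid markers 1 fell, and 6 were lower at unadjusted p under 0.05 in limma, with a median log2 fold change of -1.28 over the list. In this list WT replicate 1 lay within the range of the N1IC arrays: Ltf, a neutrophil granule gene, had 8.99, 9.40 and 10.18 on the N1IC arrays, against 9.73, 12.73 and 12.62 on the WT arrays. Of 7 dendritic markers 2 fell, and of 7 erythroid markers 1 fell, the erythroid mean being between 8.93 and 9.37 in N1IC and between 8.90 and 9.43 in WT. No defining marker is called absent, since no detection calls were used. In bulk RNA, fewer cells of a type and less Hox RNA per cell cannot be told apart, and the part that these cell types have in the Hox values was not tested.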

How the data were processed

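The members and gene lists were chosen with earlier results of these data known. RNA of 3 N1IC and 3 WT mice (5 ng each, amplified and biotin-labelled with Nugen Ovation kits, per the labels' protocols) was hybridised to Affymetrix arrays. The deposited values are linear intensities made by the authors with RMA, per the submitters' processing notes. The sources used here give no version or settings of RMA. Amplification and RMA can compress fold changes of dim probe sets. The labels say that the groups were littermates, not which mice share a litter, and give no batch.

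Of 45101 probe sets, 64 were controls, 34945 had 1 gene symbol and 932 had several. Symbols were updated by gene ID through RefSeq GRCm38.p6. After log2, each of 18193 genes was represented by its brightest probe set and lmFit and eBayes of limma 3.58.1 (R 4.3.3) tested N1IC minus WT in both directions, without covariates and with 4 residual and 2.05 prior degrees of freedom. P-values were adjusted by Benjamini-Hochberg over all genes tested, and 0.05 was the threshold. The test was checked on simulated data. Files were read by data.table (1.17.8) in R and pandas 2.3.3, and the plots use matplotlib 3.10.9 under Python 3.11.15.

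Every measured member is accounted for, and those called are given on every array. From each list the rule names up to 6 called genes by smallest p, or else the 3 with the highest mean. For marker lists counts and levels are given, and the T-lineage and B-lineage genes named were chosen after their values were seen. Flanking genes were named where called. Alternatives were a repeated quantile normalization, centring on array medians, a block for the replicate number, a covariate for sex, female mice only, the brighter 60% or 40% of genes, the mean of all probe sets, every probe set separately, an intensity trend, a robust prior, array weights, thresholds of 0.01 and 0.1, and leaving out each array. A comparison of homeodomain sequences was not made.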

Additional observations from a re-analysis of the deposited data

How the results depend on the processing

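The count of Hox genes that fell, 8, was 1 with a covariate for sex, 2 with female mice only, 1 with the brighter 40% of genes (2 members tested) and 3 at the threshold of 0.01, and from 4 to 7 with 1 array left out, lowest without WT replicate 3 and 5 without N1IC replicate 3. It lay between 6 and 8 in the other settings, and the count that rose was 0 throughout. Hoxa genes that fell (5) were 1 with sex, 1 with female mice only, 1 with the brighter 40%, 3 with the mean of probe sets, 1 at 0.01, and 2 to 4 with 1 array left out. Hoxb genes that fell (3) were 0 with sex, 1 with female mice only, 0 with the brighter 40%, and 2 to 3 with 1 array left out. Same-numbered arrays had correlations of deviations from their group means of -0.09, -0.07 and 0.07. These cannot show which mice share a litter, so whether replicate numbers pair the mice is unknown. With the replicate block, 1 Hoxb gene, 1 TALE cofactor, 1 Polycomb gene and 3 flanking genes were called. TALE cofactors called (2) were 1 with repeated quantile normalization, sex, female mice only, the mean of probe sets, 0.01 or any 1 array left out, and 0 with the brighter 40%. Activators called (0) were 1 with each probe set on its own. Polycomb genes called (2) were 0 with sex, female mice only or 0.01, 1 with the mean of probe sets, 4 with each probe set or at 0.1, and 0 to 1 with 1 array left out. Flanking genes called (6) were 1 with sex or female mice only, 3 with the brighter 40%, 2 at 0.01, and 2 to 4 with 1 array left out. Stem cell markers that fell (11) were 4 with sex, 6 with female mice only, with the brighter 40% or at 0.01, and 7 to 10 with 1 array left out. Counts for flanking genes, marker lists and Hoxa9 or Meis1 targets under these settings were chosen after seeing the data. Over all genes, 1512 fell and 632 rose, against 333 to 2211 and 116 to 1038 under the alternatives. No member changed direction among the 8 that fell, and the all-gene median moved by under 0.1. The causes were not tested.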
